A study of Mus musculus with 8 samples.

Results

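The olfactory and vomeronasal receptor genes of the mouse were followed in RNA sequencing of medullary thymic epithelial cells (mTECs). The genes were chosen by their symbol in the GENCODE vM21 annotation (Olfr, Vmn1r, Vmn2r or Taar followed by a digit) and by at least 10 counts summed over the 8 libraries. This rule selected 32 of the 25466 genes in the table, namely 29 Olfr genes, 2 Vmn1r genes, 1 Vmn2r gene and no Taar gene. The annotation names 1756 genes of these families, and 113 of them are listed in the table, whose genes all have counts in at least 2 libraries. Since a summed count chose the members, libraries with more counts weighed more in the choice, and members seen in 1 subset alone had to come from a subset with enough counts there. The distribution of the members over the subsets is therefore given as a description. The members just inside the minimum were Olfr96 and Olfr1370 with 10 counts each and Olfr101 with 11, and the genes just outside it were Olfr222 and Vmn2r1 with 9 counts each.

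Olfactory receptors are G protein-coupled receptors of the sensory neurons of the nose, where a mature neuron usually expresses a single receptor gene. Odorant binding activates the G protein Gnal and the adenylyl cyclase Adcy3, and the cyclic AMP formed opens a channel of Cnga2, Cnga4 and Cngb1, after which the chloride channel Ano2 amplifies the current. Vomeronasal receptors detect pheromones in neurons that signal through Gnai2 (V1R, Vmn1r) or Gnao1 (V2R, Vmn2r). In the thymus, mTECs transcribe many genes of other tissues, which exposes developing T cells to self-antigens, and the regulators Aire and Fezf2 are required for many of these genes.

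The study sorted mTECs as CD45neg Epcam+ CDR1neg cells from thymi of wild-type mice (BL6N6) aged 4 to 6 weeks and divided them by surface Tspan8, a tetraspanin, and by MHC class II. The resulting 4 subsets, Tspan8negMHCIIlo, Tspan8negMHCIIhi, Tspan8posMHCIIhi and Tspan8posMHCIIlo, had 2 libraries each, labelled as biological replicates. Nothing in the labels says whether these came from separate animals, so p-values measure only the spread between libraries, which may be partly technical. Library totals ranged from 1941518 to 7783841 counts. Tspan8 was at 347 to 403 CPM (counts divided by the library total, with TMM factors, and brought to a common scale) in the Tspan8pos libraries and at 3.64 to 14.6 CPM in the Tspan8neg libraries. H2-Ab1, a chain of MHC class II, was at 4966 and 5072 CPM in Tspan8negMHCIIhi, 2424 and 2612 in Tspan8posMHCIIhi, 2068 and 1694 in Tspan8negMHCIIlo and 517 and 488 in Tspan8posMHCIIlo. Thus Tspan8 mRNA followed its label, and H2-Ab1 was higher in MHCIIhi than in MHCIIlo on either side of the Tspan8 gate.

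Sequences upstream of the transcription start are shown for members with counts in every library, where the RefSeq start lies on a GENCODE start and the window holds no annotated exon. RefSeq (GRCm38.p6) gave a promoter entry for 24 of the 32 members, and in 9 of these the listed start was the start codon, which left 15. The 3 sequences that follow, 250 bases each and 5′ to 3′ on the gene's strand, belong to Olfr613 (chr7:103550118-103550367, plus strand), Vmn1r65 (chr7:6011011-6011260, minus strand) and Olfr374 (chr8:72106790-72107039, plus strand). The Olfr613 bases lie within the annotated extent of the gene, upstream of a transcript start inside it. Capitals mark the letters TATAAA on either strand.
Olfr613: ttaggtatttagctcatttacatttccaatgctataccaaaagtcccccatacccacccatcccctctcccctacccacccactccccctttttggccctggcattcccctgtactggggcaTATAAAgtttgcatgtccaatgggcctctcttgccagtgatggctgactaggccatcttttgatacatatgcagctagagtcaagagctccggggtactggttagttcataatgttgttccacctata
Vmn1r65: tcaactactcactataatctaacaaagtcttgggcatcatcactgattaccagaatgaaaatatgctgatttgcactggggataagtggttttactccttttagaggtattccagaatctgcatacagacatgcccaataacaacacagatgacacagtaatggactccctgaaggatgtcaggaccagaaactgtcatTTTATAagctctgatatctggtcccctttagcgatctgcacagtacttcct
Olfr374: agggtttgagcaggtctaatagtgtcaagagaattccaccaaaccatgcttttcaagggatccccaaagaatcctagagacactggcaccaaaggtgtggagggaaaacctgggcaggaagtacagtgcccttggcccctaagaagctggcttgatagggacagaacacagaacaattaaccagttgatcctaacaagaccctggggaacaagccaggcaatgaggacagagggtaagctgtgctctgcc
TATAAA was present in Olfr613 and Vmn1r65 and absent from these bases of Olfr374. These letters occurred in 6 of the 15 member promoters, in 37.7% of the 1281 receptor promoters of the table and in 12.4% of all 32851 promoters. The homeodomain core TAATTA, searched on both strands as well, was found in 1 of the 15, against 16.1% of receptor promoters and 4.84% of all promoters. The letters CACCC were found in 3 of the 15, in 17.5% of receptor promoters and in 52% of all promoters, and the Ebf palindrome in 0 of the 15, 0.312% and 0.779%. Unlike the 15, the 1281 and 32851 promoters still include entries that start at the start codon. For Vmn1r58 and Olfr920, among the 15, all 250 bases lay in an exon of the gene itself. For Olfr701, 224 bases lay in an exon of another gene, 4930458B22Rik. The listed start of Olfr56 was 47121 bases from the nearest GENCODE start of the gene. Olfr701 and Olfr56 were among the 6 with TATAAA. The sets are thus not alike, and a match is a description of the letters, not a binding site.

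The next pair of sequences is shown because Olfr101 and Olfr102, neighbours 7482 bases apart on chromosome 17, were the members whose libraries were both highest in Tspan8posMHCIIhi. They cover chr17:37300485-37300734 and chr17:37314438-37314687, both on the minus strand, and both lie within the annotated extent of their gene, upstream of one of its transcripts, without an exon base. Capitals mark the longest run shared by both, 36 bases.
Olfr101: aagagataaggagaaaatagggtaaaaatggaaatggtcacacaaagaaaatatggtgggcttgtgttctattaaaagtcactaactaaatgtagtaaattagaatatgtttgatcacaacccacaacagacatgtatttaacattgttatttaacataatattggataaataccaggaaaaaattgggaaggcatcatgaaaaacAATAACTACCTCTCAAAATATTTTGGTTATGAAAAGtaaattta
Olfr102: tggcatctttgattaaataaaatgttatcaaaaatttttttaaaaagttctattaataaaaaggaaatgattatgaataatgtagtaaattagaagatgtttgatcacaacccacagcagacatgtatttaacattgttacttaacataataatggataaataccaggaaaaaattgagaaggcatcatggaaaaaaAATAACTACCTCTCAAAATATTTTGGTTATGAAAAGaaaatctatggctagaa
In a global alignment the pair was 74.8% identical. The other 104 pairs among the 15 member promoters had a median identity of 52.2% and a range of 45.9% to 69.7%, and their longest shared run was 15 bases. The highest of these other pairs was Vmn1r58 with Vmn1r65. Olfr101 and Olfr102 were picked by their levels, and a link between the shared bases and those levels was not tested.

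The members' gene models were long for their coding parts. Of the 32 members, 29 had an annotated coding sequence, of 924 to 2467 bases with a median of 942, and the exons of a member covered 748 to 10140 bases. A median of 31.65% of the exon length was coding. Because the deposited counts are per gene, reads in coding and untranslated exons cannot be told apart here. By biotype 28 members were protein coding and 4 were pseudogenes, and 6 symbols carried the suffix -ps. The 2 class I members, the receptor class that clusters beside the beta-globin genes on chromosome 7, were Olfr613 and Olfr78.

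Near-identical copies could divide reads among genes. Of the members, 22 had at least 90% of their 54-base words to themselves within the annotated transcripts, and the median was 96.5%. Vmn2r55 was the least distinct at 34.5%, and it shared 36.7% of its words with Vmn2r54. Its counts, and those of Olfr43 (69.5%, with Olfr403), are therefore uncertain. In position, 6 members overlapped another annotated gene and 3 of them a listed one. Olfr56 (chr11:48978889-49135387) spans the interferon-induced genes Tgtp1 and Tgtp2 on the other strand and Ifi47 on the same strand, Olfr1372-ps1 overlaps the noncoding gene Gm26551 on the same strand, and Olfr78 overlaps Olfr560 on the same strand.

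The members were unevenly placed in the genome. Chromosome 7 held 8 of them (25%, with 25.5% of the annotated receptor genes), chromosome 11 held 7 (21.9%, with 5.92% of the annotated genes) and chromosome 17 held 7 (21.9%, with 6.15%). Chromosome 2, which carries 21.1% of the annotated receptor genes, held 1. All 7 members of chromosome 17 lay at 37140423-37452230 (GRCm38), a stretch of 311.8 kb with 23 annotated receptor genes of which 11 were listed. The nearest genes of other families were Ubd, H2-M2 and H2-M3, and the H2-M genes are class Ib genes of the major histocompatibility complex. On chromosome 11 the members Olfr328, Olfr329-ps and Olfr330 were adjacent, with 4432 and 4965 bases between them. For 25 of the 32 members, the nearest other receptor gene was not listed.

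Receptor transcripts were a small part of every library. The 32 members had 1995 counts in all, which was 0.00281% to 0.00827% of a library. Their summed level was 73.5 and 77.0 CPM in Tspan8negMHCIIhi, 47.1 and 47.8 CPM in Tspan8posMHCIIhi, 40.04 and 37.04 CPM in Tspan8posMHCIIlo, and 27.2 and 28.4 CPM in Tspan8negMHCIIlo. The subset ranges did not overlap, and the spread within a subset (SD 0.527 to 2.50 CPM, n = 2) was smaller than each step between neighbouring subsets. The mean of Tspan8negMHCIIhi, 75.3 ± 2.50 CPM, was 2.71 times that of Tspan8negMHCIIlo, 27.8 ± 0.891 CPM, and 1.59 times that of Tspan8posMHCIIhi, 47.45 ± 0.527 CPM (SD, n = 2). No test was made of a sum over genes chosen with their counts known. In bulk samples, fewer cells that transcribe a gene and less RNA of it per cell cannot be told apart.

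The sum had a broad base and a subset-dependent top. The 6 members with the highest counts, Olfr1372-ps1, Vmn1r58, Olfr613, Vmn1r65, Olfr374 and Olfr56, held 69.0% of all member counts and had counts in all 8 libraries. Their summed level was 45.8 and 40.6 CPM in Tspan8negMHCIIhi and between 32.3 and 36.9 CPM in the Tspan8pos libraries, with 23.3 and 23.7 CPM in Tspan8negMHCIIlo. The other 26 members together were at 27.7 and 36.5 CPM in Tspan8negMHCIIhi, 12.5 and 10.9 CPM in Tspan8posMHCIIhi, 6.58 and 4.77 CPM in Tspan8posMHCIIlo and 3.92 and 4.70 CPM in Tspan8negMHCIIlo. Between Tspan8negMHCIIhi and Tspan8negMHCIIlo the ratio of means was thus 1.84 for the 6 members and 7.45 for the other 26. This division was made after the counts were seen and is a description.

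**Figure D1:**
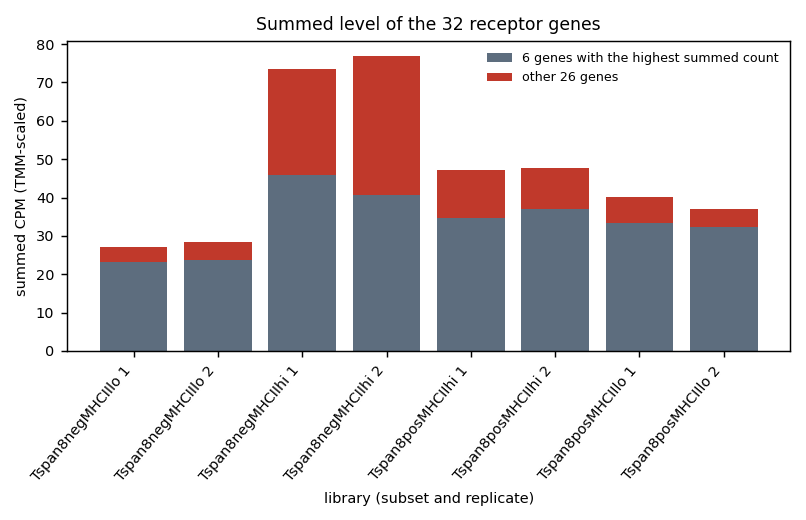
Summed CPM (TMM-scaled, y axis) of the 32 receptor genes in each of the 8 libraries (x axis), with the 6 genes of highest summed count in grey and the other 26 in red. The red part reaches 27.7 and 36.5 CPM in Tspan8negMHCIIhi and at most 12.5 CPM in any other library.

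Aire and Fezf2 levels are given beside these sums. Aire was at 2647 and 2464 CPM in Tspan8negMHCIIhi, 401 and 540 in Tspan8posMHCIIhi, 212 and 204 in Tspan8negMHCIIlo and 14.8 and 35.3 in Tspan8posMHCIIlo. Fezf2 was at 433.5 and 414 CPM, 298 and 345 CPM, 186 and 156.5 CPM, and 135.5 and 183 CPM in the same order of subsets. All 3 measures were highest in Tspan8negMHCIIhi and next in Tspan8posMHCIIhi. The order at the lower end differed, because the receptor sum was lowest in Tspan8negMHCIIlo and Aire was lowest in Tspan8posMHCIIlo. The part of either regulator in the receptor levels was not tested.

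The number of receptor genes seen depended on the subset as well as on depth. At full depth, 29 and 30 of the 32 members had a count in Tspan8negMHCIIhi, 20 and 20 in Tspan8posMHCIIhi, 13 and 14 in Tspan8negMHCIIlo and 12 and 14 in Tspan8posMHCIIlo. Reduced in expectation to the smallest total of 1941518 counts, the libraries gave 24.6 and 26.6, 17 and 15.8, 10.9 and 11.6, and 12 and 10.9 members in the same order, with a counting SD of up to 1.64. The mean for Tspan8negMHCIIhi was 1.97 times the mean of the other 3 subsets, and the same ratio over all 25466 genes was 1.12. The ratio over all genes is no measure of background, because it had little room to rise. At this depth the libraries of the other 3 subsets already detected 71.4% to 76.7% of all genes, against 33.9% to 53.1% of the members. Members could also pass the minimum of summed counts through Tspan8negMHCIIhi alone, so the ratio of 1.97 is a description. The MHCIIhi subsets overlapped neither with each other nor with the MHCIIlo subsets, and the latter overlapped.

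The full list of 113 receptor genes depended on the listing in at least 2 libraries instead of the minimum of 10 counts. It gave the same order at the top. A gene counted only in the 2 Tspan8negMHCIIhi libraries met this listing, such as Olfr1206 and Olfr368 with 1 count in each library. The lead of that subset is therefore partly set by the listing and is a description. At equal depth 56.9 and 55.4 of the 113 genes were expected in Tspan8negMHCIIhi and 23.4 and 24.3 in Tspan8posMHCIIhi. The libraries of Tspan8negMHCIIlo gave 16.1 and 17.6 and those of Tspan8posMHCIIlo 19 and 15.2, so that these 2 subsets overlapped. With all counts, 87 and 95 of the 113 genes were seen in Tspan8negMHCIIhi, and 19 to 38 in the other libraries, among them the deepest library of all, Tspan8posMHCIIlo replicate 2, with 23. A count of 0 still allows up to 3 counts, which is 0.383 to 1.65 CPM depending on the library, so a receptor gene without counts may have been transcribed below that level. Intervals and limits here cover counting error only.

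**Figure D2:**
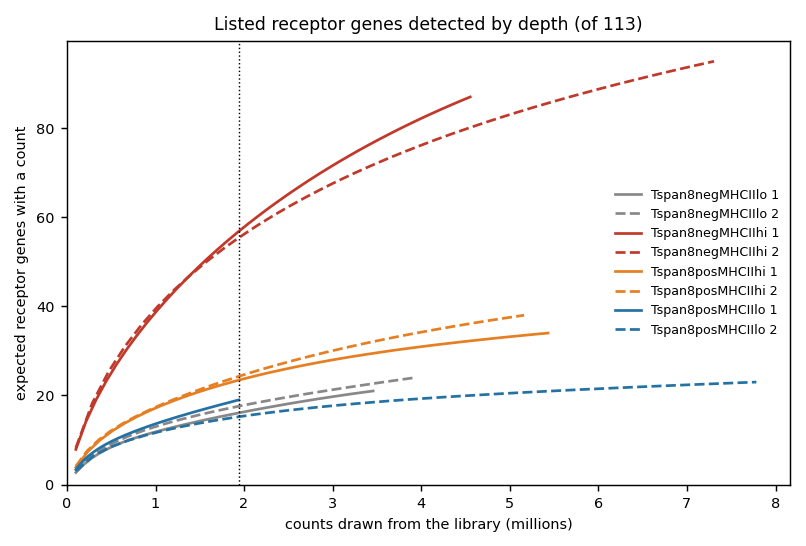
Expected number of the 113 listed receptor genes with at least 1 count (y axis) against the number of counts drawn from each library (x axis), coloured by subset, with replicate 1 solid and replicate 2 dashed. At the dotted line, the smallest library total, the Tspan8negMHCIIhi curves are at 56.9 and 55.4 and the other 6 are at 15.2 to 24.3.

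The members detected in all libraries are described first. Olfr1372-ps1 (ENSMUSG00000108218.1, chr11:52154722-52168159), a transcribed pseudogene of an odorant receptor, was at 14.1 and 14.7 CPM in Tspan8negMHCIIhi. It was at 5.04 and 5.17 CPM in Tspan8negMHCIIlo, 5.56 and 10.5 CPM in Tspan8posMHCIIhi and 5.49 and 7.22 CPM in Tspan8posMHCIIlo. Both Tspan8negMHCIIhi libraries were above the other 6, and the range of Tspan8posMHCIIhi overlapped that of Tspan8posMHCIIlo.

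Vmn1r58 (ENSMUSG00000078808.4, chr7:5401681-5413396) and Vmn1r65 (ENSMUSG00000066850.1, chr7:6007750-6011010), V1R receptors of the same chromosome, differed little between subsets relative to their replicates. Vmn1r58 was at 11.8 and 8.04 CPM in Tspan8negMHCIIhi, 11.9 and 8.31 CPM in Tspan8posMHCIIhi, 7.68 and 9.26 CPM in Tspan8posMHCIIlo and 3.92 and 7.99 CPM in Tspan8negMHCIIlo. Vmn1r65 was at 5.59 and 5.10 CPM, 4.37 and 5.27 CPM, 6.03 and 4.77 CPM, and 4.48 and 2.82 CPM in the same order. For both genes all neighbouring subsets in the order of means overlapped. Olfr613 (ENSMUSG00000078624.3, chr7:103548074-103555506), a class I receptor, was highest in Tspan8posMHCIIlo at 8.78 and 6.40 CPM, against 6.004 and 5.48 CPM in Tspan8negMHCIIhi, 4.57 and 4.86 CPM in Tspan8posMHCIIhi and 5.04 and 2.59 CPM in Tspan8negMHCIIlo.

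Olfr374 (ENSMUSG00000046881.5, chr8:72107040-72118200) divided by MHCII rather than by Tspan8. Its level was 5.38 and 5.48 CPM in Tspan8negMHCIIhi and 5.56 and 4.05 CPM in Tspan8posMHCIIhi, against 2.24 and 2.35 CPM in Tspan8negMHCIIlo and 1.65 and 2.04 CPM in Tspan8posMHCIIlo. All 4 MHCIIhi libraries were above all 4 MHCIIlo libraries. Olfr56 was at 1.79 to 3.85 CPM in the 8 libraries with all subsets overlapping, and its overlap with interferon-induced genes makes its own level uncertain.

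Per kilobase of exon, the order of the levels changed. Averaged over the 8 libraries, Vmn1r65 had the highest level per length, 1.53 CPM per kb, followed by Olfr613 with 1.05 CPM per kb. The short pseudogene Olfr760-ps1 was at 0.872 CPM per kb, next to Olfr1372-ps1 at 0.863 and Vmn1r58 at 0.850 CPM per kb. The lowest member per length was Olfr1349 with 0.0456 CPM per kb.

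**Figure D3:**
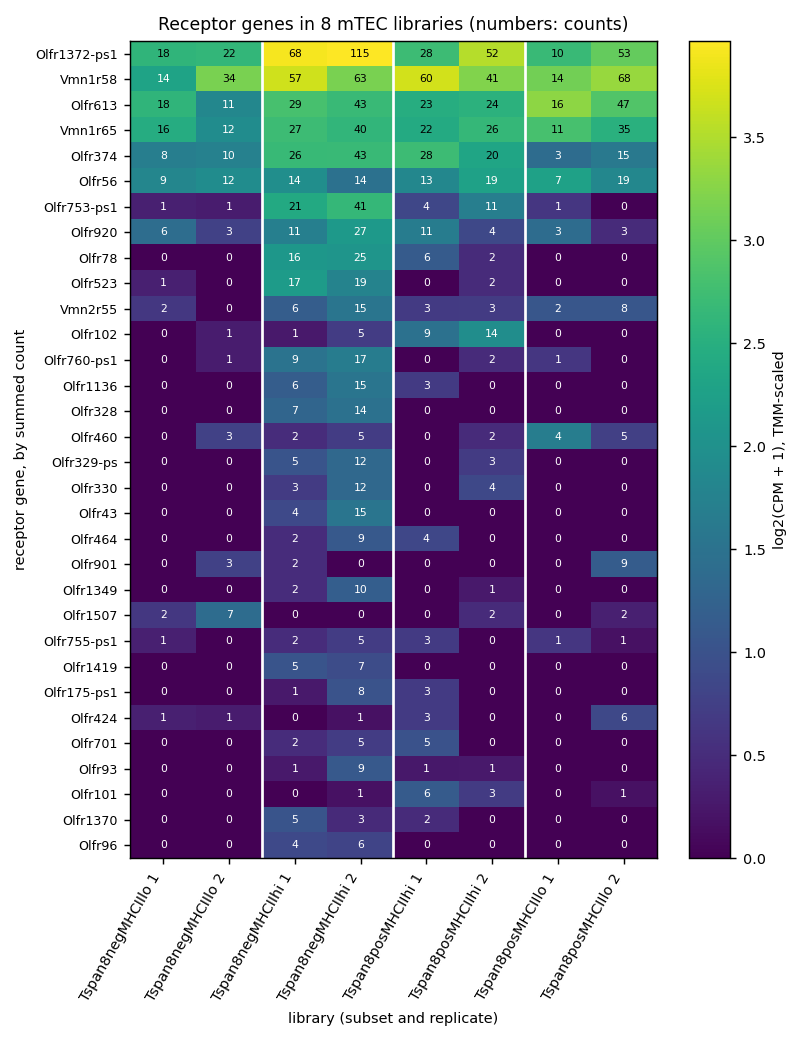
Level of the 32 receptor genes (rows, by summed count) in the 8 libraries (columns, by subset and replicate) as log2(CPM + 1), with the count of each gene and library printed in its cell. The 6 rows at the top are filled in all libraries, and most of the lower rows are filled mainly in the 2 Tspan8negMHCIIhi columns.

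Below these genes, most members were counted chiefly in Tspan8negMHCIIhi. By the mean of its libraries, this subset was the highest for 22 of the 32 members (68.8%), Tspan8posMHCIIlo for 5, Tspan8posMHCIIhi for 4 and Tspan8negMHCIIlo for 1. Of the 21539 genes with at least 10 summed counts, 31.3% were highest in Tspan8negMHCIIhi. Both Tspan8negMHCIIhi libraries were above all the others for 15 of 32 members, where 19.3% of all genes with at least 10 summed counts showed this. The same held for Tspan8posMHCIIhi with 2 members (background 7.13%), for Tspan8posMHCIIlo with 1 (10.9%) and for Tspan8negMHCIIlo with 1 (15.3%). Among the 15 of Tspan8negMHCIIhi, genes such as Olfr328 and Olfr43 had 100% of their counts there and passed the minimum through that subset alone. These numbers of members are therefore a description. The 2 of Tspan8posMHCIIhi were Olfr101 and Olfr102, the 1 of Tspan8posMHCIIlo was Olfr613, and the 1 of Tspan8negMHCIIlo was Olfr1507. Olfr101 and Olfr1507 were named after their values were seen.

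Olfr753-ps1 (ENSMUSG00000090556.4, chr17:37168313-37185730), annotated as a polymorphic pseudogene, was at 4.35 and 5.23 CPM in Tspan8negMHCIIhi. It was at 0.795 and 2.23 CPM in Tspan8posMHCIIhi, 0.280 and 0.235 CPM in Tspan8negMHCIIlo and 0.549 and 0 CPM in Tspan8posMHCIIlo. The Tspan8negMHCIIhi and Tspan8posMHCIIhi libraries were all above the MHCIIlo libraries. Olfr920 (ENSMUSG00000061039.3, chr9:38752299-38760117) was at 2.28 and 3.44 CPM in Tspan8negMHCIIhi and at 0.409 to 2.19 CPM in the other 6 libraries, so its lower Tspan8negMHCIIhi library was close to the highest of the rest.

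Olfr78 (ENSMUSG00000043366.14, chr7:102738511-102759471), a class I receptor known to respond to short-chain fatty acids and to be expressed in the carotid body and in blood vessels, had counts in MHCIIhi libraries only. There were 16 and 25 counts in Tspan8negMHCIIhi, 6 and 2 in Tspan8posMHCIIhi and 0 in each of the 4 MHCIIlo libraries. In CPM these were 3.31 and 3.19 in Tspan8negMHCIIhi and 1.19 and 0.405 in Tspan8posMHCIIhi, without overlap. Against a floor of 3 counts per library, Olfr78 was at least 4.21-fold higher in Tspan8negMHCIIhi than in Tspan8negMHCIIlo.

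Other genes were counted almost exclusively in Tspan8negMHCIIhi. Olfr523 (ENSMUSG00000051051.6, chr7:140173217-140178758) had 17 and 19 counts there, 1 count in Tspan8negMHCIIlo replicate 1, 2 counts in Tspan8posMHCIIhi replicate 2 and none in the other 4 libraries. The ratio of Tspan8negMHCIIhi to Tspan8posMHCIIhi for Olfr523 was 14.2, with an exact 95% counting interval of 3.65 to 121. Olfr328 (chr11:58550854-58555636) had 7 and 14 counts there and Olfr43 (chr11:74205664-74211379) 4 and 15, and neither had a count in the other 6 libraries. Olfr328 was thereby at least 2.09-fold higher than in Tspan8negMHCIIlo and at least 2.69-fold higher than in Tspan8posMHCIIhi. These genes met the naming rule of at least 10 counts in 1 library and at most 3 in each library of other subsets. Their ratio, interval and folds therefore describe genes that fit a rule for this pattern.

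Olfr760-ps1 (chr17:37451433-37452230) had 9 and 17 counts in Tspan8negMHCIIhi and 0 to 2 in any other library. Olfr1136 (chr2:87692881-87693947) had 6 and 15 counts there, 3 counts in Tspan8posMHCIIhi replicate 1 and none elsewhere. Olfr329-ps (chr11:58539801-58546422) had 5 and 12 counts there and 3 in Tspan8posMHCIIhi replicate 2. For these 3 genes every library outside Tspan8negMHCIIhi was at or under the floor of 3 counts, as the rule that named them required. Vmn2r55 (chr7:12651706-12685003), a V2R receptor, had 6 and 15 counts in Tspan8negMHCIIhi, 3 and 3 in Tspan8posMHCIIhi, 2 and 8 in Tspan8posMHCIIlo and 2 and 0 in Tspan8negMHCIIlo, and in CPM both Tspan8negMHCIIhi libraries were above the other 6.

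Olfr102 (ENSMUSG00000091531.1, chr17:37311795-37317054) had higher levels in both Tspan8posMHCIIhi libraries than in either Tspan8negMHCIIhi library. The difference was not called by edgeR at a minimum of 10 summed counts (log2 fold change 2.22 ± 1.06, edgeR adjusted p = 0.138). Olfr102 did not pass the filter on low counts of the main test. It was at 1.79 and 2.84 CPM in Tspan8posMHCIIhi, from 9 and 14 counts, and at 0.207 and 0.638 CPM in Tspan8negMHCIIhi, from 1 and 5 counts. A single count was seen in the Tspan8negMHCIIlo libraries and none in Tspan8posMHCIIlo, so that it was at least 2.25-fold higher in Tspan8posMHCIIhi than in Tspan8posMHCIIlo. Its neighbour Olfr101 (chr17:37297556-37304313), with 11 counts in all, had 6 and 3 counts in Tspan8posMHCIIhi and 0 to 1 in the other libraries. The pair share 11.2% of the words of Olfr102 and 10.28% of those of Olfr101, so some reads could have been assigned to either.

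By subset means, the stretch on chromosome 17 held members of different order. Its 7 members summed to 7.87 and 10.7 CPM in Tspan8negMHCIIhi, 4.57 and 6.28 CPM in Tspan8posMHCIIhi, 0.560 and 0.705 CPM in Tspan8negMHCIIlo and 1.65 and 0.272 CPM in Tspan8posMHCIIlo. The MHCIIhi libraries were all above the MHCIIlo libraries. Olfr753-ps1 and Olfr760-ps1, at the level of single genes, were highest in Tspan8negMHCIIhi. So was Olfr96, named after its values were seen, with 4 and 6 counts there and none elsewhere. Olfr101 and Olfr102 were highest in Tspan8posMHCIIhi. None of these genes passed between the MHCIIhi subsets, with edgeR adjusted p of 0.0842 to 0.145 at a minimum of 10 summed counts. Genes such as Olfr96 reached that minimum through Tspan8negMHCIIhi alone, so the order and the sum are a description.

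**Figure D4:**
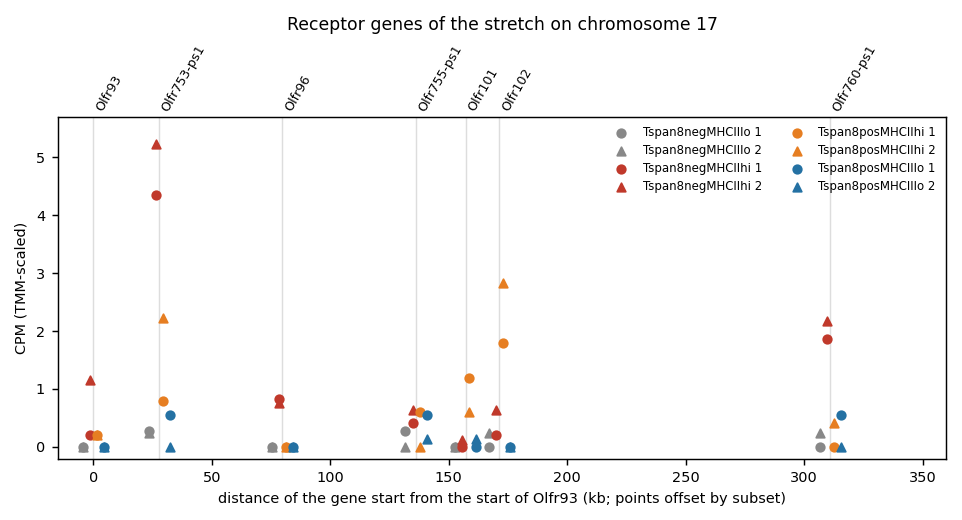
Level of the 7 receptor genes of chromosome 17 (y axis, CPM, TMM-scaled) by the distance of the gene start from that of Olfr93 (x axis, kb), with a point per library coloured by subset and shaped by replicate. Olfr753-ps1 reaches 4.35 and 5.23 CPM in Tspan8negMHCIIhi, and Olfr102 reaches 1.79 and 2.84 CPM in Tspan8posMHCIIhi.

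A few sparse members were counted outside the MHCIIhi subsets. Olfr1507 (chr14:52488791-52495749), Olfr901 and Olfr424 were named after their values were seen. Olfr1507 had 2 and 7 counts in Tspan8negMHCIIlo, none in Tspan8negMHCIIhi and 0 to 2 elsewhere. Olfr901 had 9 of its 14 counts, and Olfr424 6 of its 12, in Tspan8posMHCIIlo replicate 2 alone, with 0 in the other replicate, whose total was the smallest. For Olfr901 and Olfr424 the level in that subset thus rests on 1 library.

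The comparison of MHCIIhi with MHCIIlo addresses maturation within each Tspan8 class. The paper proposes a sequence from Tspan8negMHCIIlo over Tspan8negMHCIIhi and Tspan8posMHCIIhi to the late Tspan8posMHCIIlo. In that sequence, MHCIIhi is the later stage within Tspan8neg and the earlier stage within Tspan8pos. The paper also describes Tspan8negMHCIIlo as immature cells mixed with mimetic mTECs such as Tuft cells. The comparison within Tspan8neg is therefore not one of maturation alone. The comparison of Tspan8pos with Tspan8neg addresses the cells that carry this tissue-restricted antigen. Of the 32 members, 10 passed the filter on low counts and were tested by edgeR's quasi-likelihood test among 17006 genes. A gene was called at a Benjamini-Hochberg adjusted p under 0.01 and a log2 fold change of at least 1 in size.

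Within Tspan8neg, 3 of the 10 tested members were called and all 3 were higher in MHCIIhi. Of all tested genes, 22.7% were called and 13.1% were called higher. Olfr78 and Olfr753-ps1 passed the filter on low counts through the Tspan8negMHCIIhi libraries, where they were high. The 3 of 10 is therefore a description. Olfr1372-ps1 rose by 1.49 ± 0.362 on the log2 scale (SE, 2 against 2 libraries; edgeR adjusted p = 0.00658). Olfr753-ps1 rose by 4.11 ± 0.960 (edgeR adjusted p = 0.00541), and its counts, 62 against 2, gave a ratio of 19.2 with an exact 95% counting interval of 5.08 to 162. Olfr78 rose with an edgeR adjusted p of 0.00517, and its fitted log2 fold change of 7.02 ± 1.51 depends on the prior count because Tspan8negMHCIIlo was at 0. Each of the 3 was higher in both Tspan8negMHCIIhi libraries than in either Tspan8negMHCIIlo library.

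Whether these 3 genes passed the threshold depended on the tool and on each library of the contrast. DESeq2's Wald test called none of the members, with adjusted p of 0.0136 for Olfr78, 0.0183 for Olfr1372-ps1 and 0.0201 for Olfr753-ps1. Without any 1 of the 4 Tspan8neg libraries, Tspan8negMHCIIlo replicate 1 or 2 or Tspan8negMHCIIhi replicate 1 or 2, 0 members were called by edgeR. Each of these fits leaves 1 library in a subset, which is assumed to vary like the other subsets. The log2 fold changes moved little, with ranges of 7 to 7.07 for Olfr78, 3.98 to 4.32 for Olfr753-ps1 and 1.47 to 1.61 for Olfr1372-ps1, while the edgeR adjusted p ranged from 0.0155 to 0.0590.

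The other 7 tested members did not pass in this comparison. Olfr523 was next with a log2 fold change of 4.27 ± 1.24 and an edgeR adjusted p of 0.0189, and Olfr374 had 1.24 ± 0.451 and 0.0458. Vmn1r58, Olfr613, Vmn1r65 and Olfr920 had log2 fold changes of 0.56 to 1.30, and Olfr56 of -0.22. With all 32 members tested, at a minimum of 10 summed counts, the same 3 genes were called, 28 members had a positive log2 fold change (87.5%, against 55.6% of the 21539 genes) and the median was 4.02 against 0.13 for all genes. These last values rest partly on genes that passed the minimum through Tspan8negMHCIIhi, and on fitted values against 0, and support nothing by themselves.

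Within Tspan8pos, 0 of the 10 tested members were called by edgeR between MHCIIhi and MHCIIlo, where 7.21% of all tested genes were called. At an unadjusted p under 0.05 there were 3, all higher in MHCIIhi, and DESeq2 called 0. The 3 were Olfr374 with a log2 fold change of 1.31 ± 0.474 (edgeR adjusted p = 0.0857), Olfr753-ps1 with 3.43 ± 1.24 (0.0860) and Olfr78 with 5.03 ± 1.79 (0.0923, fitted against a group at 0). The values for Olfr374 were close to those within Tspan8neg, and for Olfr1372-ps1 the log2 fold change was 0.28 ± 0.368 here.

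**Figure D5:**
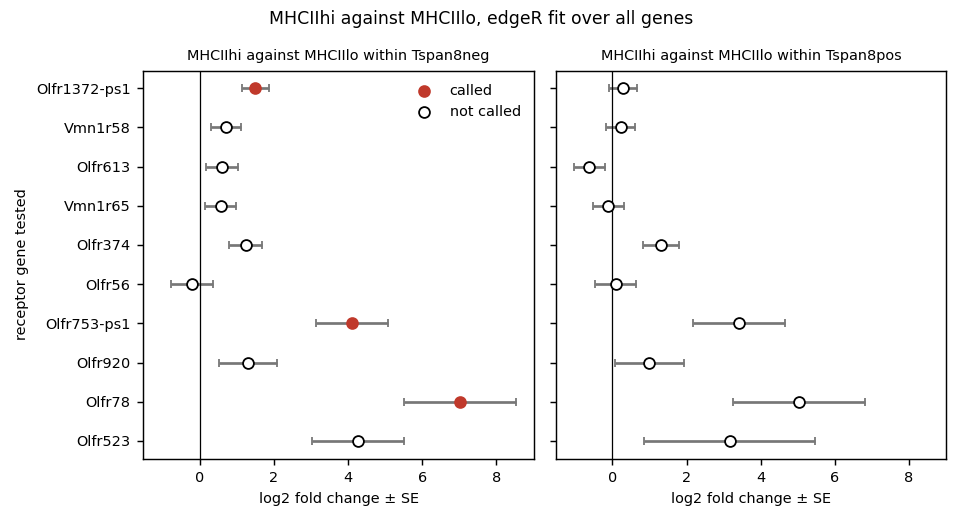
Log2 fold change between MHCIIhi and MHCIIlo (x axis, points with bars of 1 SE) for the 10 tested receptor genes (y axis) within Tspan8neg (left) and Tspan8pos (right), with called genes in red. Olfr1372-ps1, Olfr753-ps1 and Olfr78 are called within Tspan8neg and none within Tspan8pos, and values for Olfr78 are fitted against a group without counts.

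Whether the difference by MHCII depended on Tspan8 was tested by the interaction. By edgeR, 0 of the 10 members were called, where 4.6% of all tested genes were, 1 member had an unadjusted p under 0.05, and DESeq2 called 0. That member was Olfr1372-ps1, with a log2 interaction of -1.21 ± 0.517 (edgeR adjusted p = 0.162). For Olfr78 the interaction could not be estimated, because both MHCIIlo subsets were at 0. For the other 9 tested members it was not detectable at this depth.

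Within MHCIIhi, Tspan8pos and Tspan8neg differed in 18.5% of all tested genes, while 0 of the 10 members were called by edgeR and 0 by DESeq2. At an unadjusted p under 0.05 there were 4, all lower in Tspan8pos, namely Olfr523, Olfr1372-ps1, Olfr78 and Olfr753-ps1. Olfr523 had a log2 fold change of -3.71 ± 1.09 (edgeR adjusted p = 0.0218), and it was called when only the 4 MHCIIhi libraries were fitted. Olfr78 had -1.99 ± 0.781, Olfr753-ps1 -1.66 ± 0.699 and Olfr1372-ps1 -0.84 ± 0.336, with edgeR adjusted p of 0.0745, 0.0843 and 0.0706. The median over the 10 members was -0.56 and over all tested genes -0.03, and the unequal direction of the members is a description of genes chosen with counts known.

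Within MHCIIlo, 0 of the 10 members were called between Tspan8pos and Tspan8neg by edgeR, 0 had an unadjusted p under 0.05, and DESeq2 called 0, where 21.4% of all tested genes were called. Olfr613 had the lowest edgeR adjusted p, 0.108, with a log2 fold change of 0.95 ± 0.442. The median over the 10 members was 0.09, against -0.03 over all tested genes. With most members at 0 to 3 counts in these 4 libraries, a difference of such genes could not have been seen.

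Genes of odorant and pheromone signalling were examined as a list of 43, of which 37 had counts and 24 were tested. Between MHCIIhi and MHCIIlo within Tspan8neg, 7 were called higher and 4 lower by edgeR, 11 of 24, where 22.7% of all tested genes were called and 13.1% were called higher. The 11 calls became 7 without Tspan8negMHCIIhi replicate 1 and 6 without Tspan8negMHCIIhi replicate 2. The medians of the log2 fold change were 0.52 for the list and -0.04 for all tested genes. The list was chosen with earlier results of these data known. H2-M10.1, Ano2 and Gucy2d, among the 7, passed the filter on low counts through Tspan8negMHCIIhi, so the number of calls is a description.

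In the odorant cascade, the channel subunits and the chloride channel were among the higher genes. Cnga2, the principal subunit of the olfactory cyclic nucleotide-gated channel, was at 12.4 and 20.3 CPM in Tspan8negMHCIIhi, 7.35 and 8.92 in Tspan8posMHCIIhi, 3.08 and 0.705 in Tspan8negMHCIIlo and 0.549 and 1.09 in Tspan8posMHCIIlo. Its log2 fold change by MHCII was 3.17 ± 0.530 within Tspan8neg (edgeR adjusted p = 0.000705) and 3.05 ± 0.614 within Tspan8pos (edgeR adjusted p = 0.00609). All 4 MHCIIhi libraries were above all 4 MHCIIlo libraries for Cnga2. Cngb1, the modulatory subunit, rose by 3.79 ± 0.638 within Tspan8neg (edgeR adjusted p = 0.00073) and was lower in Tspan8pos than in Tspan8neg within MHCIIhi by edgeR (log2 fold change -2.21 ± 0.523, adjusted p = 0.00651).

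Pde1c, a phosphodiesterase of olfactory cilia that also acts in other tissues, was at 124 and 129 CPM in Tspan8negMHCIIhi and at 15.9 to 49.0 CPM elsewhere (log2 fold change within Tspan8neg 1.55 ± 0.163, edgeR adjusted p = 3.18e-05). Ano2 and Gucy2d, the guanylyl cyclase of a small set of olfactory neurons, had no count in Tspan8negMHCIIlo and were at least 6.37-fold and 5.67-fold higher in Tspan8negMHCIIhi, and both were called. Gng13, a G protein gamma subunit of olfactory and taste cells, went the other way, at 6.42 and 9.57 CPM in Tspan8negMHCIIhi, 28.3 and 39.95 in Tspan8negMHCIIlo and 123 and 85.7 in Tspan8posMHCIIlo. Its log2 fold change within Tspan8neg was -2.06 ± 0.276 (edgeR adjusted p = 0.000163), and it overlaps Chtf18 on the other strand.

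Tuft cell markers are given beside Gng13 because Tuft cells use the taste cascade. The 6 markers summed to 159 and 183 CPM in Tspan8negMHCIIhi, 1224 and 1690 in Tspan8negMHCIIlo, 1073 and 1252 in Tspan8posMHCIIhi and 6569 and 6710 in Tspan8posMHCIIlo. The part of Tuft cells in the Gng13 level was not tested.

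The first steps of the cascade varied less. Gnal was at 2.35 to 7.397 CPM, with a log2 fold change of 1.08 ± 0.466 within Tspan8neg (edgeR adjusted p = 0.085), and Adcy3 at 10.97 to 29.6 CPM. Adcy3, which overlaps Cenpo on the other strand, was called higher in MHCIIhi within Tspan8pos, by 1.21 ± 0.208 (edgeR adjusted p = 0.00241), and not within Tspan8neg. Within Tspan8pos, 4 list genes were called higher in MHCIIhi, Cnga2, Adcy3, Slc24a4 and the trafficking gene Reep1, and 2 lower, Gng13 and Ric8b, where 7.21% of all tested genes were called. These 6 calls of 24 became 1 without Tspan8posMHCIIhi replicate 1, 2 without Tspan8posMHCIIhi replicate 2 and 1 without either Tspan8posMHCIIlo replicate. Rtp1, which carries olfactory receptors to the cell surface, was at 0.828 and 1.53 CPM in Tspan8negMHCIIhi and at 0 in both Tspan8negMHCIIlo libraries, and it was not tested.

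Of the vomeronasal genes, H2-M10.1 and Ano1 were called higher in Tspan8negMHCIIhi than in Tspan8negMHCIIlo. H2-M10.1, a class Ib molecule found with V2R receptors, had 85 counts against 2, a ratio of 26.25 with an exact 95% counting interval of 7.05 to 220, and was lower in Tspan8pos than in Tspan8neg within MHCIIhi (log2 fold change -3.04 ± 0.778, edgeR adjusted p = 0.00997). The chloride channel Ano1, which many epithelia use, was highest in the Tspan8pos subsets at 43.3 to 60.05 CPM, against 10.35 and 13.0 in Tspan8negMHCIIhi and 2.52 and 2.11 in Tspan8negMHCIIlo. Gnai2 was at 203 to 419 CPM and Gnao1 at 1.99 to 11.5 CPM in the 8 libraries, and both are expressed in many cell types.

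Among the transcription factors of olfactory neurons in the list, none was called higher in MHCIIhi within Tspan8neg by edgeR. Ldb1, a cofactor of LIM-homeodomain factors that overlaps Pprc1 on the other strand, fell by 1.40 ± 0.178 on the log2 scale (edgeR adjusted p = 0.000111). Bcl11b, a factor of olfactory neurons and of T cells, fell by 2.09 ± 0.431 (edgeR adjusted p = 0.00261). Lhx2, which is required for most olfactory receptor transcription in the nose, was at 2.69 and 1.79 CPM in Tspan8negMHCIIhi and at 0 to 0.560 CPM in the other 6 libraries, and was not tested.

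Thymocyte markers moved with the same comparison as Bcl11b. The 6 markers summed to 335 and 930 CPM in Tspan8negMHCIIlo, 62.5 and 129 CPM in Tspan8negMHCIIhi, 67.3 and 94.6 CPM in Tspan8posMHCIIhi and 114 and 196 CPM in Tspan8posMHCIIlo. Their part in the Bcl11b and receptor values was not tested.

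Within MHCIIlo, Gng13 and Ano1 of the list were called higher in Tspan8pos by edgeR, and Pde1c and Slc24a4 were among those called lower, 5 of 24 in all, where 21.4% of all tested genes were called. Within MHCIIhi the same test called Gng13 and Ano1 higher, and Pde1c, H2-M10.1 and Cngb1 were among those called lower, 6 of 24 in all against 18.5% of all tested genes. These 6 calls became 3 without Tspan8negMHCIIhi replicate 1 or without Tspan8posMHCIIhi replicate 1. In the interaction Ano1 was called (-2.46 ± 0.384, edgeR adjusted p = 0.00264).

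The label of the cells was checked against defining markers. The 6 mTEC markers Epcam, Foxn1, Krt5, Krt14, Aire and Cd80 summed to 2558 to 4018 CPM in all libraries. Within that sum the markers did not move together. Aire averaged 2555 CPM in Tspan8negMHCIIhi and 25.04 CPM in Tspan8posMHCIIlo, whereas Krt5 averaged 256 and 1385 CPM. Of 10 markers of olfactory and vomeronasal neurons, 9 were analysed, and they summed to 109 and 124 CPM in Tspan8negMHCIIhi, 80.1 and 78.0 in Tspan8posMHCIIhi, 66.4 and 53.8 in Tspan8negMHCIIlo and 40.04 and 43.98 in Tspan8posMHCIIlo. Omp, the marker of mature olfactory neurons, was at 41.7 to 52.1 CPM in MHCIIhi, 30.2 and 33.0 in Tspan8posMHCIIlo and 8.12 and 8.93 in Tspan8negMHCIIlo, but it overlaps Capn5 on the same strand and its reads may belong to either. Gap43 and Gng8, markers of immature and vomeronasal neurons, were at 0 in all 4 MHCIIlo libraries and at 0 to 3.31 CPM in the MHCIIhi libraries. By subset means Gap43, Gng8, Cnga2 and Calb2 were highest in Tspan8negMHCIIhi and Omp in Tspan8posMHCIIhi, whereas the other 4, the general neuronal genes Ncam1, Stmn2, Snap25 and Tubb3, were highest in Tspan8negMHCIIlo. Ncam1 was at 26.9 and 19.3 CPM there and 14.9 and 14.03 CPM in Tspan8negMHCIIhi, and Stmn2 was at 15.4 and 6.58 CPM against 3.52 and 4.21 CPM.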

How the data were processed

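RNA was sequenced from 8 libraries of sorted mTECs, 2 for each of 4 subsets. Per the labels and the study's methods, the authors quantified single-end reads with Salmon 1.8.0 on a Gencode mouse transcriptome (mm10), and deposited estimated counts per gene as whole numbers; the step from transcripts to genes is not given in the sources used here. The library kit is described differently in the sources (stranded mRNA kit or pre-amplification with tagmentation), so use of strand in the counting is uncertain. The table lists only genes with a count in at least 2 libraries. Symbols and positions came from GENCODE vM21 (GRCm38), and 130 of the 25466 identifiers had no symbol. Promoters came from RefSeq (GRCm38.p6).

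Counts were fitted in edgeR 4.0.16 (R 4.3.3) with TMM factors, filterByExpr and a quasi-likelihood test on 4 subset means over all 8 libraries, two-sided. A call required a log2 fold change of 1 or more in either direction together with a Benjamini-Hochberg adjusted p under 0.01. The procedure was tested on simulated data. Alternatives were DESeq2 1.42.0, other scalings, filters and thresholds, a replicate block, and leaving out each library. Expected detection used a closed form at equal depth. Ratios against groups with 1 to 3 counts have exact 95% counting intervals, and folds against groups at 0 use a floor of 3 counts per library.

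Named members were the 12 with the highest mean CPM, those called, and up to 6 with at least 10 counts in 1 library and no more than 3 in each library of the other subsets. Named signalling genes were those called, up to 3 per role and comparison, and those a sentence turns on; Aire, Fezf2, Tspan8 and H2-Ab1 served as reference genes. The values of 1 gene of the signalling list are not reported here, and counts over the list include it. Members and lists were chosen with earlier results of these data known. Replicates differed by more than counting noise over all genes (chi-square per gene 3.29 to 9.84), so none was counted as a repeat of another.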

Additional observations from a re-analysis of the deposited data

How the results depend on the processing

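The receptor genes called between MHCIIhi and MHCIIlo within Tspan8neg, 3 by edgeR, numbered 0 by DESeq2, 1 with a filter of at least 10 counts in 4 libraries and 5 at an adjusted p under 0.05. Leaving out a library gave 0 to 2, and 0 to 3 when the genes of at least 10 summed counts were kept, an alternative chosen after seeing the data. Between Tspan8pos and Tspan8neg within MHCIIhi, 1 receptor gene (Olfr523) was called with only the 4 libraries of the contrast or at an adjusted p under 0.05, against 0. Leaving out a library, the signalling genes called numbered 3 to 7 between Tspan8pos and Tspan8neg within MHCIIhi, 6 to 11 between MHCIIhi and MHCIIlo within Tspan8neg and 1 to 6 within Tspan8pos. The cause was not tested; each such fit has fewer samples.

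The summed receptor level in Tspan8negMHCIIhi, 1.98 times the mean of the other subsets, was 2.09 times with DESeq2 size factors, 2.18 with library totals, 1.81 without overlapping members, 1.86 with members of at least 90% own words, 1.86 at a minimum of 20 counts and 2.25 over all 113 listed genes. The ratio of detected genes at equal depth, 1.97, was 2.09 at a minimum of 3 counts, 2.91 over all 113 genes and 2.20 without overlapping members. For these 2 ratios and for the log2 fold changes of Olfr78, Olfr753-ps1 and Olfr1372-ps1 within Tspan8neg, no alternative run reversed the direction. The values over all 113 genes include genes listed through the 2 Tspan8negMHCIIhi libraries alone.

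With the replicate number as a block, 3 receptor genes were called between MHCIIhi and MHCIIlo within Tspan8neg and 0 in the other comparisons, as without it. Deviations of same-numbered libraries correlated by 0.00402 to 0.0924 over 6 pairs of subsets, so the numbers were not taken to pair the libraries. Most members had under 10 counts in a library, and depth limits what can be said of them singly.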
